A study of Mus musculus with 18 samples.

Results

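The 10 genes followed here, taken by symbol from the 55450 genes of the deposited table, encode the transforming growth factor-β (TGF-β) ligands (Tgfb1, Tgfb2 and Tgfb3), their receptors (Tgfbr1, Tgfbr2 and Tgfbr3) and the latent TGF-β binding proteins (Ltbp1, Ltbp2, Ltbp3 and Ltbp4). The source was MEF, fibroblasts grown from mouse embryos that lay down extracellular matrix in culture, and their poly(A) RNA gave 18 libraries in 6 groups of 3. The cells had been transfected with the empty pcDNA3 vector, with a vector that drives miR-29b from the promoter of the collagen gene Col1a1 (Col1a1-miR-29b), or with one that drives it from the viral CMV promoter (CMV-miR-29b). Both miR-29b vectors also carry genes of a green and a red fluorescent protein, which are not described for the empty vector. DNA was given at equal molar amounts, so its mass was larger for Col1a1-miR-29b than for CMV-miR-29b. The part of these differences in the comparisons of vectors was not tested. TGF-β at 20 ng/ml, or none, was added 6 h after transfection and left for 24 h. The study states 3 repeats of the experiment a group, and the transfection was transient, with no step described that separates transfected from untransfected cells. All 10 genes passed the filter on low counts that kept 21161 genes for testing.

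TGF-β is secreted as a latent complex, in which the mature dimer is held by its propeptide and, in most cells, joined to a latent TGF-β binding protein that anchors it in the matrix. Release from this complex lets the ligand reach the type II receptor (Tgfbr2), which then recruits and phosphorylates the type I receptor (Tgfbr1) and so starts Smad signaling. The type III receptor, betaglycan (Tgfbr3), presents ligand to the signaling receptors. In fibroblasts this pathway drives matrix production, and miR-29 is known as a repressor of many collagen and matrix mRNAs.

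The mature sequence of miR-29b-3p is shown because its seed, bases 2 to 8 in capitals, guides its pairing with mRNAs, and RefSeq places it on GRCm38.p6 at chr1:195037091-195037113 on the plus strand (Mir29b-2) and chr6:31063025-31063047 on the minus strand (Mir29b-1).
miR-29b-3p: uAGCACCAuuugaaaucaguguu

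A complement of these 7 bases, TGGTGCT on the mRNA strand, was looked for in the 3′ UTR of each of the 10 genes. Only Tgfb2, a ligand gene on the minus strand of chromosome 1, held it, at 2 places in a 3′ UTR of 2656 bases in its last exon, exon 7 of 7. They lie on GRCm38 at chr1:186623804-186623810 (UTR position 1638) and chr1:186622816-186622822 (UTR position 2626). Both are shown with 9 bases on each side, with the match in capitals and the shown stretches at chr1:186623795-186623819 and chr1:186622807-186622831 on the minus strand.
Tgfb2 first match: tggttttttTGGTGCTcatggggtg
Tgfb2 second match: ccggttttgTGGTGCTctagtggta

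At least 1 match of this kind was present in 14.8% of the 14367 tested genes with an annotated 3′ UTR, and in 25% of the 2507 tested genes whose 3′ UTR was 2000 to 3500 bases long, near that of Tgfb2. As in Tgfb2, 2 or more matches were present in 322 of the 14367 genes and in 88 of the 2507. The other 9 genes had no match in the 3′ UTR of the transcript examined, which for Tgfbr2 was 6085 bases long and for Tgfb1 was 135 bases long. A match is a description of the sequence and not a measured site.

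Total counts per library were 65898017 to 80332633, and the 10 genes had 305 to 10733 counts per library. Replicates differed by more than counting error, with a mean chi-square per gene of 36.95 to 58.5 between libraries of a group. Mir29b-1, the gene of the miR-29b precursor, had 0 counts in the empty vector libraries. In Col1a1-miR-29b libraries it had 0, 1 and 1 counts without TGF-β and 4, 2 and 6 with it. In CMV-miR-29b libraries it had 110, 115 and 309 counts without TGF-β and 214, 203 and 293 with it. These are counts of poly(A) transcripts at the mouse gene, while the vectors carry the human miR-29b-1 sequence. Mature miR-29b was not measured in these libraries. Of 10 fibroblast markers, 7 had a median of at least 1 CPM (counts scaled to library depth), led by Col1a1, Col1a2 and Vim, while Lum had no count in any library and Thy1 had at most 8. Summed markers were at most 2.94 CPM for 5 epithelial, 3.03 CPM for 4 endothelial and 1.63 CPM for 5 leukocyte genes. In empty vector cells the endothelial sum was 0.936 to 1.42 CPM without TGF-β and 2.33 to 2.83 CPM with it, with Cdh5 called higher, and the epithelial sum 0.774 to 1.21 and 1.60 to 2.62 CPM, with Krt14 called higher, while the leukocyte sums overlapped (0.562 to 1.09 and 0.785 to 1.06 CPM). The fibroblast sum, carried by Col1a1, Col1a2 and Vim, was 2270 to 2627 CPM without TGF-β and 4599 to 5562 CPM with it, where Col1a1, Col1a2, Col3a1 and Pdgfrb were called higher, Dcn lower and Pdgfra, Vim and Fap in neither direction. Of 4 smooth muscle markers, 3 had a median of at least 1 CPM (Smtn 111, Des 16.2 and Cnn1 6.37), while Myh11 had 0.192. The sum of the 4, carried by Smtn, was 114 to 124 CPM in empty vector cells without TGF-β and 157 to 158 CPM with it. There Smtn was called higher, Cnn1 lower and Des and Myh11 in neither direction. The part of cell composition in the results was not tested, and in these bulk libraries fewer cells of a type and less RNA per cell cannot be told apart.

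In untreated empty vector cells, the 10 genes were compared by FPKM, the authors' value scaled for both length and depth. Tgfbr1 had the highest level, 10.19 ± 0.37 FPKM (SD, n = 3), and Ltbp2 the lowest, 0.524 ± 0.042. Ltbp3 (8.37 ± 0.30) and Tgfbr2 (8.32 ± 0.23) overlapped each other and lay below every Tgfbr1 library. Tgfbr3, Tgfb1, Tgfb3, Ltbp4 and Ltbp1 followed, from 6.79 down to 4.42 FPKM, and neighbors in that series overlapped. Tgfb2 was at 1.76 ± 0.13 FPKM, apart from its neighbors on both sides. Of the summed ligand FPKM, Tgfb1 made up 48.0%, Tgfb3 38.6% and Tgfb2 13.5%. Among the receptors the shares were 40.3% for Tgfbr1, 32.9% for Tgfbr2 and 26.8% for Tgfbr3. Among the binding proteins Ltbp3 held 45.8%, Ltbp4 27.2%, Ltbp1 24.2% and Ltbp2 2.86%.

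With TGF-β the order changed in the empty vector cells. Ltbp3 was first, at 12.92 ± 0.52 FPKM (SD, n = 3), above every Tgfbr1 library (11.23 ± 0.63). Ltbp1 moved from the eighth place to the third, at 8.878 ± 1.101 FPKM, where it overlapped Tgfb1 (7.82 ± 0.66). Ltbp2 (2.38 ± 0.15) passed Tgfb2 (1.78 ± 0.15), without overlap. The summed FPKM of the 4 binding proteins was 18.3 (17.4 to 18.8) without TGF-β and 28.8 (28.2 to 29.9) with it. The receptor sum was 25.3 (25.0 to 25.8) and 24.6 (24.2 to 24.9), and the ligand sum 13.1 (12.3 to 14.0) and 16.4 (15.4 to 17.9). The binding proteins thus went from a lower summed level than the receptors to a higher one in every library, with Ltbp2 at 8.27% and Ltbp4 at 16.2% of their sum.

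In the miR-29b groups the ends of the order were the same. Tgfbr1 led without TGF-β and Ltbp3 with it, and Ltbp2 was last without TGF-β and Tgfb2 with it, in both vectors. In CMV-miR-29b cells with TGF-β the Ltbp3 and Tgfbr1 libraries overlapped. Tgfb3 took a different place. With Col1a1-miR-29b, for which FPKM of 2 libraries a group was used, Tgfb3 had the highest level of the 3 ligands, 6.73 FPKM (6.68 and 6.77) against 5.74 for Tgfb1 without TGF-β and 8.34 FPKM (8.06 and 8.63) against 7.63 with it. With CMV-miR-29b Tgfb1 was above Tgfb3, at 5.68 ± 0.43 against 4.39 ± 0.48 FPKM without TGF-β and 7.43 ± 0.15 against 6.53 ± 0.34 with it (SD, n = 3). Tgfb3 made up 47.8% of the ligand FPKM in untreated Col1a1-miR-29b cells, 38.6% in empty vector and 37.7% in CMV-miR-29b cells. The summed FPKM of the binding proteins was 17.4 and 26.6 without and with TGF-β for Col1a1-miR-29b, and 18.7 and 28.3 for CMV-miR-29b. Untreated Tgfbr3 was at 6.54 ± 0.78 FPKM in the CMV-miR-29b group, above the 5.68 FPKM (5.54 and 5.83) of the Col1a1-miR-29b group.

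**Figure D1:**
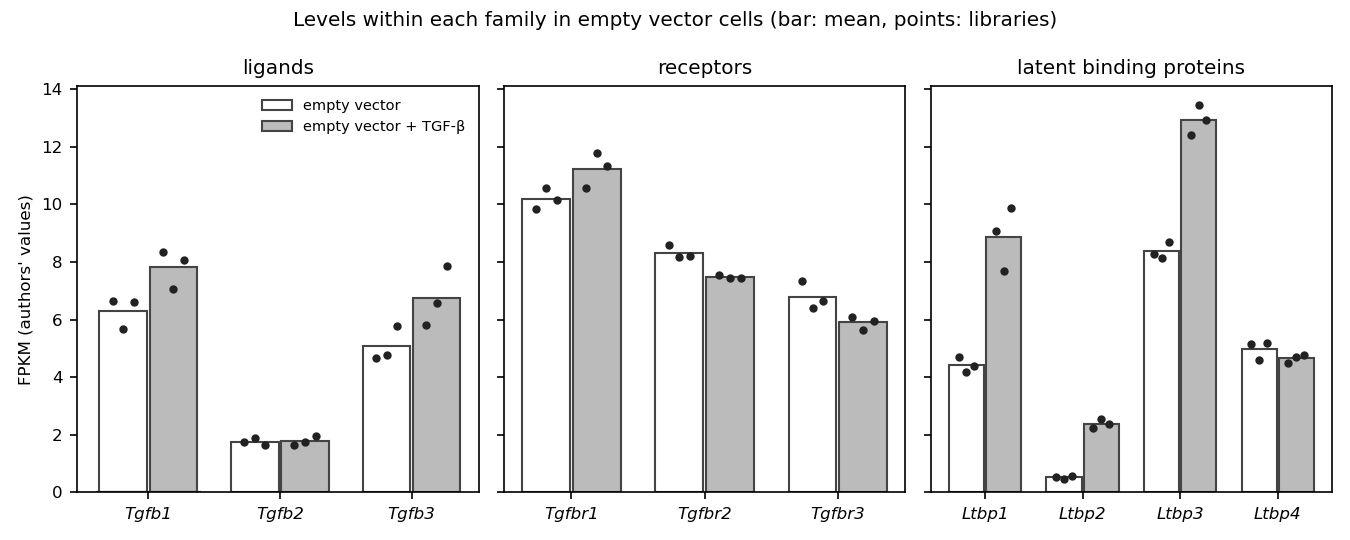
Bars give the mean FPKM, in the authors' units, of each gene in 3 empty vector libraries without TGF-β (white) and 3 with it (grey), and points are the libraries. Ltbp3 reached 12.92 FPKM and Ltbp1 8.88 FPKM with TGF-β, while the Tgfb2 points of both groups lie between 1.63 and 1.94.

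TGF-β raised 5 of the 10 genes in empty vector cells and lowered none past the threshold. Among them were 3 binding proteins (Ltbp2, Ltbp1 and Ltbp3), and the others were the ligands Tgfb1 and Tgfb3. Each p comes from edgeR's quasi-likelihood test on the 18 libraries, adjusted by Benjamini-Hochberg across the tested genes, and a call is an adjusted p under 0.05. Over all tested genes 5.88% were called in this comparison, 3.88% as higher. For 8 of the 10 genes the 3 treated and 3 untreated libraries did not overlap, which was so for 21% of all tested genes. The median log2 fold change was 0.26 over the 10 genes and 0.002 over all tested genes.

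Ltbp2 (GRCm38 chr12:84783212-84876532, minus strand), a binding protein of elastic fiber microfibrils that is not known to hold latent TGF-β as the others do, changed most. Its normalized count in empty vector libraries c, d and e was 4.94, 4.38 and 5.09 CPM without TGF-β and 21.2, 23.5 and 22.3 CPM with it. The lowest treated library was far above the highest untreated one. Ltbp2 rose 4.65-fold, a log2 fold change of 2.22 (SE 0.11, adjusted p = 2.54e-09 from edgeR).

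Ltbp1 (GRCm38 chr17:75005568-75392512, plus strand), which ties latent TGF-β to fibronectin and fibrillin in the matrix, had 56.7, 49.9 and 52.0 CPM without TGF-β and 112, 92.7 and 122 CPM with it. The treated libraries all lay above the untreated ones but spread more widely, library d being the lowest. Its log2 fold change was 1.04 (SE 0.10, adjusted p = 6.88e-06 from edgeR). Ltbp3 (GRCm38 chr19:5740904-5758532, plus strand), a binding protein needed for secretion of TGF-β in bone and elsewhere, had 84.5, 82.4 and 87.6 CPM without TGF-β and 129.6, 137 and 135 CPM with it. It rose by less than Ltbp1 and with a narrower spread, with a log2 fold change of 0.66 (SE 0.06, adjusted p = 6.98e-06). Ltbp4 (GRCm38 chr7:27305136-27337692, minus strand), the binding protein tied to elastic fiber assembly, had 37.4, 33.1 and 37.3 CPM without TGF-β and 33.6, 34.4 and 35.6 CPM with it. The Ltbp4 groups overlapped, and its log2 fold change of −0.06 did not pass (95% confidence interval −0.21 to 0.10, adjusted p = 0.798). Ltbp1 and Ltbp2 are among the genes that the study drew in its own heat map of these libraries, so their direction is not independent evidence.

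Tgfb1 (GRCm38 chr7:25687002-25705077, plus strand), the ligand isoform best known in fibrosis, had 37.6, 31.9 and 37.0 CPM in libraries c, d and e without TGF-β and 48.4, 40.2 and 46.9 CPM with it. The lowest treated library exceeded the highest untreated one by a small margin, and library d was the lowest of both groups. Its log2 fold change was 0.35 (SE 0.08, adjusted p = 0.017 from edgeR). Tgfb3 (GRCm38 chr12:86056745-86079041, minus strand), the isoform known for palate development, had 17.7, 18.05 and 21.7 CPM without TGF-β and 22.6, 25.1 and 30.7 CPM with it. Its groups did not overlap, with library e the highest of both, and the log2 fold change was 0.45 (SE 0.11, adjusted p = 0.0212). Tgfb2 (GRCm38 chr1:186622792-186705989, minus strand), the isoform best known from heart and eye development, had 11.4, 12.2 and 10.5 CPM without TGF-β and 10.99, 11.6 and 13.01 CPM with it. The Tgfb2 groups overlapped, and the log2 fold change was 0.06 (95% confidence interval −0.16 to 0.28, adjusted p = 0.877). The call of Tgfb1 was lost without empty vector library d, or without treated library c or e (log2 fold changes 0.27, 0.29 and 0.31, adjusted p = 0.104, 0.0954 and 0.101). That of Tgfb3 was lost without empty vector library c or d, or without treated library e (log2 fold changes 0.39, 0.40 and 0.30, adjusted p = 0.107, 0.103 and 0.152), and with limma on FPKM. When the 2 groups were fitted alone, adjusted p was 0.153 for Tgfb1 and 0.184 for Tgfb3, and the 3 binding proteins were the genes called.

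None of the 3 receptors passed the threshold in empty vector cells. Tgfbr1 (GRCm38 chr4:47353222-47414931, plus strand), the type I receptor kinase, had 72.3, 77.2 and 73.6 CPM without TGF-β and 79.5, 86.9 and 85.4 CPM with it, with a log2 fold change of 0.17 (SE 0.06, adjusted p = 0.0978 from edgeR). Tgfbr2 (GRCm38 chr9:116084293-116175360, minus strand), the type II receptor kinase, had 78.9, 74.7 and 74.6 CPM without TGF-β and 71.2, 68.8 and 70.4 CPM with it, with a log2 fold change of −0.12 (SE 0.05, adjusted p = 0.221). Tgfbr3 (GRCm38 chr5:107106570-107289629, minus strand), betaglycan, had 54.0, 46.9 and 48.1 CPM without TGF-β and 46.0, 41.7 and 44.9 CPM with it, with a log2 fold change of −0.17 (SE 0.09, adjusted p = 0.353). In each of the 3 receptors the groups did not overlap, Tgfbr1 being higher and Tgfbr2 and Tgfbr3 lower with TGF-β. These differences were 1.13-fold, 0.922-fold and 0.890-fold, and a change of that size did not pass adjustment over all genes at this spread.

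**Figure D2:**
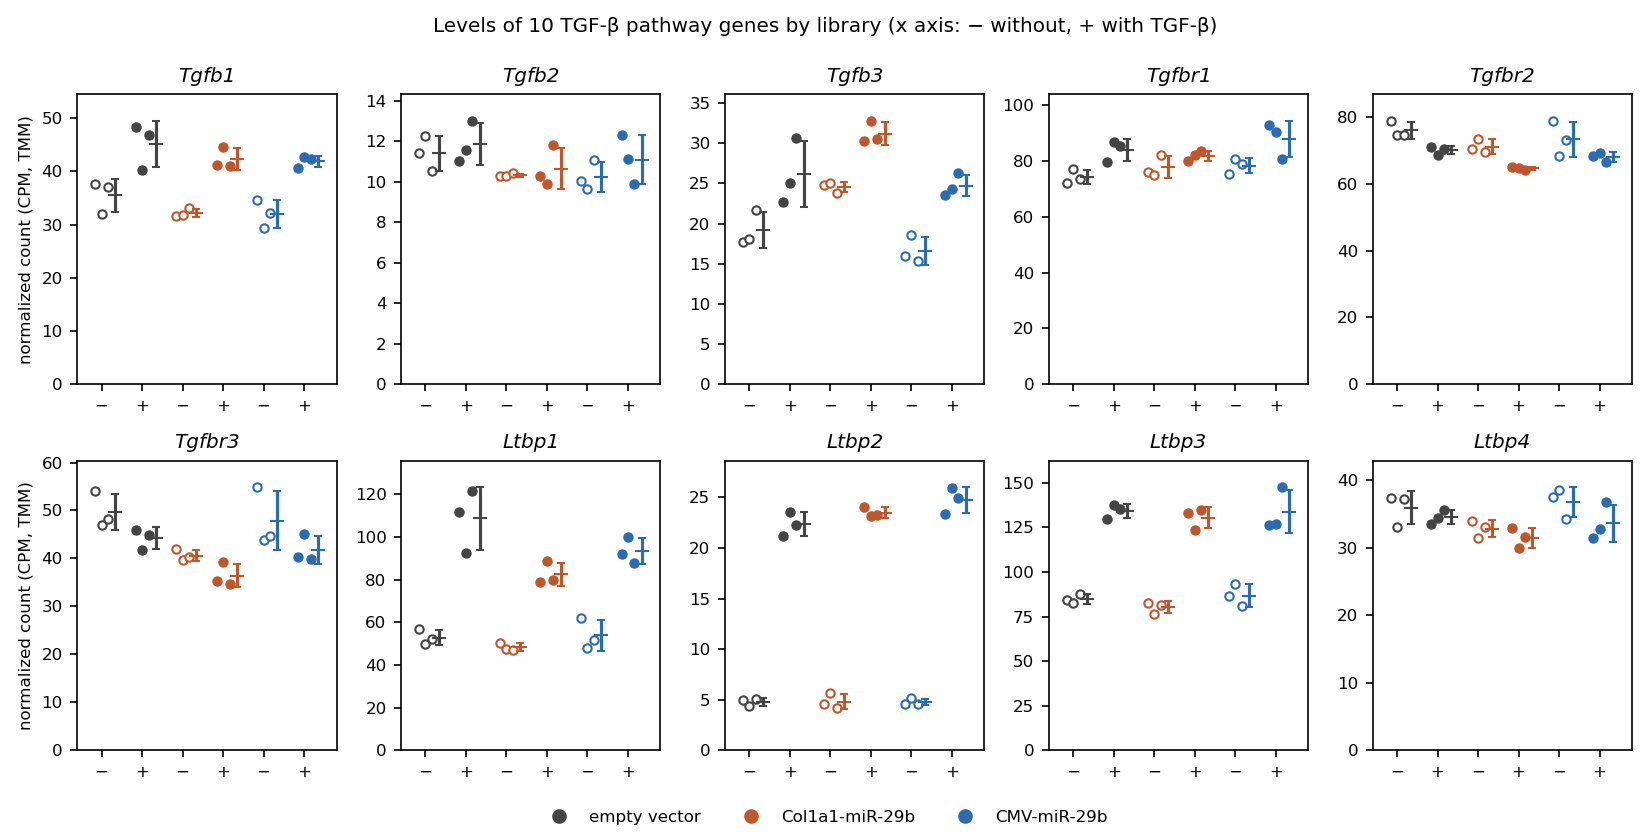
Each panel gives 1 gene, with normalized counts (CPM after TMM scaling) of the 18 libraries by vector (color) and treatment (open without, filled with TGF-β), and the bar beside each group its mean ± SD (n = 3). The Ltbp2 points fall into an untreated range of 4.24 to 5.69 CPM and a treated range of 21.2 to 25.9 CPM in all 3 vectors, and the Tgfb3 points of the Col1a1-miR-29b groups lie above those of the other untreated libraries.

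In Col1a1-miR-29b cells TGF-β raised 4 of the 10 genes, Ltbp2, Ltbp1, Ltbp3 and Tgfb1, where 4.32% of all tested genes were called and 3% were called higher. In 7 of the 10 genes the groups did not overlap, against 21.9% of all tested genes. Ltbp2 went from 4.55, 5.69 and 4.24 CPM in libraries c, d and the unlettered one to 24.1, 23.1 and 23.2 CPM, a log2 fold change of 2.28 (SE 0.11, adjusted p = 2.58e-09 from edgeR). Ltbp1 went from 50.4, 47.5 and 47.0 CPM to 78.7, 88.7 and 80.1 CPM, with a log2 fold change of 0.77 (SE 0.10, adjusted p = 0.000175). Neither gene's groups overlapped. Ltbp3 went from 82.7, 76.4 and 81.6 CPM to 133, 124 and 135 CPM, a log2 fold change of 0.70 (SE 0.06, adjusted p = 4.74e-06). Tgfb1 went from 31.7, 31.7 and 33.0 CPM to 41.3, 44.7 and 41.0 CPM, a log2 fold change of 0.40 (SE 0.08, adjusted p = 0.00886), again without overlap. The Tgfb1 call was lost without both unlettered libraries (0.43, adjusted p = 0.0536) and with limma on FPKM. Tgfb3 went from 24.8, 25.0 and 23.8 CPM to 30.2, 32.8 and 30.6 CPM. Its groups did not overlap either, but the log2 fold change of 0.35 (SE 0.11) had an adjusted p of 0.101 with edgeR and 0.04 with DESeq2, and of 0.0303 when the 2 groups were fitted alone. Without the treated empty vector library e, a library outside this comparison that enters the shared spread, its adjusted p was 0.0485. Tgfb2, Tgfbr1, Tgfbr2, Tgfbr3 and Ltbp4 had log2 fold changes of 0.04, 0.08, −0.14, −0.16 and −0.06, and none passed.

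In CMV-miR-29b cells the 5 genes that rose were Ltbp2, Ltbp1, Ltbp3, Tgfb3 and Tgfb1, against 4.95% of all tested genes called and 3.08% called higher. In 6 of the 10 genes the groups did not overlap, against 20.9% of all tested genes. Ltbp2 went from 4.60, 5.17 and 4.56 CPM in libraries c, d and e to 23.4, 25.9 and 24.9 CPM, with a log2 fold change of 2.37 (SE 0.11, adjusted p = 1.25e-09 from edgeR). Ltbp1 went from 62.0, 48.0 and 51.9 CPM to 92.1, 100.2 and 88.0 CPM, with a log2 fold change of 0.79 (SE 0.10, adjusted p = 0.000129). Both genes were higher in every treated library than in any untreated one. Ltbp3 went from 86.5, 93.1 and 80.7 CPM to 126.6, 126.9 and 148 CPM, with a log2 fold change of 0.62 (SE 0.06, adjusted p = 1.46e-05). Tgfb3 went from 15.98, 18.6 and 15.3 CPM to 23.6, 24.3 and 26.2 CPM, with a log2 fold change of 0.57 (SE 0.11, adjusted p = 0.00441). Tgfb1 went from 34.7, 29.3 and 32.1 CPM to 40.7, 42.7 and 42.4 CPM, with a log2 fold change of 0.39 (SE 0.08, adjusted p = 0.00908). In none of these 3 genes did the groups overlap. Without CMV-miR-29b library d, Tgfb1 had a log2 fold change of 0.32 and an adjusted p of 0.0573, and with the 2 groups fitted alone 0.38 and again 0.0573. Without the treated library e Tgfbr1 had 0.22 and 0.0424. With all libraries Tgfbr1 was at 0.17, Tgfb2 at 0.11, Tgfbr2 at −0.11, Tgfbr3 at −0.20 and Ltbp4 at −0.13, and none of these passed.

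The 3 responses were compared by the difference in log2 fold change, tested as a contrast of the same fit. None of the 10 genes passed this test against empty vector cells in either miR-29b vector by edgeR, where 0% of all tested genes were called in both contrasts. Of the 10 genes 0 had an unadjusted p under 0.05, against 4.54% of all tested genes for Col1a1-miR-29b and 5.34% for CMV-miR-29b, and DESeq2 and limma called none of the 10. The difference furthest from 0 was that of Ltbp1. It was −0.27 for Col1a1-miR-29b (95% confidence interval −0.57 to 0.04, adjusted p = 1) and −0.25 for CMV-miR-29b (−0.55 to 0.06, adjusted p = 0.929), and both contrasts use the same empty vector libraries. The intervals leave room for an Ltbp1 response that is smaller with a miR-29b vector as well as for one that is equal. For Ltbp2 the differences were 0.06 (−0.24 to 0.37) and 0.16 (−0.15 to 0.46), and for Ltbp3 0.04 (−0.15 to 0.24) and −0.04 (−0.23 to 0.16). For Tgfb1 they were 0.05 (−0.20 to 0.29) and 0.04 (−0.20 to 0.29), and for Tgfb3 −0.10 (−0.43 to 0.22) and 0.13 (−0.20 to 0.45).

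**Figure D3:**
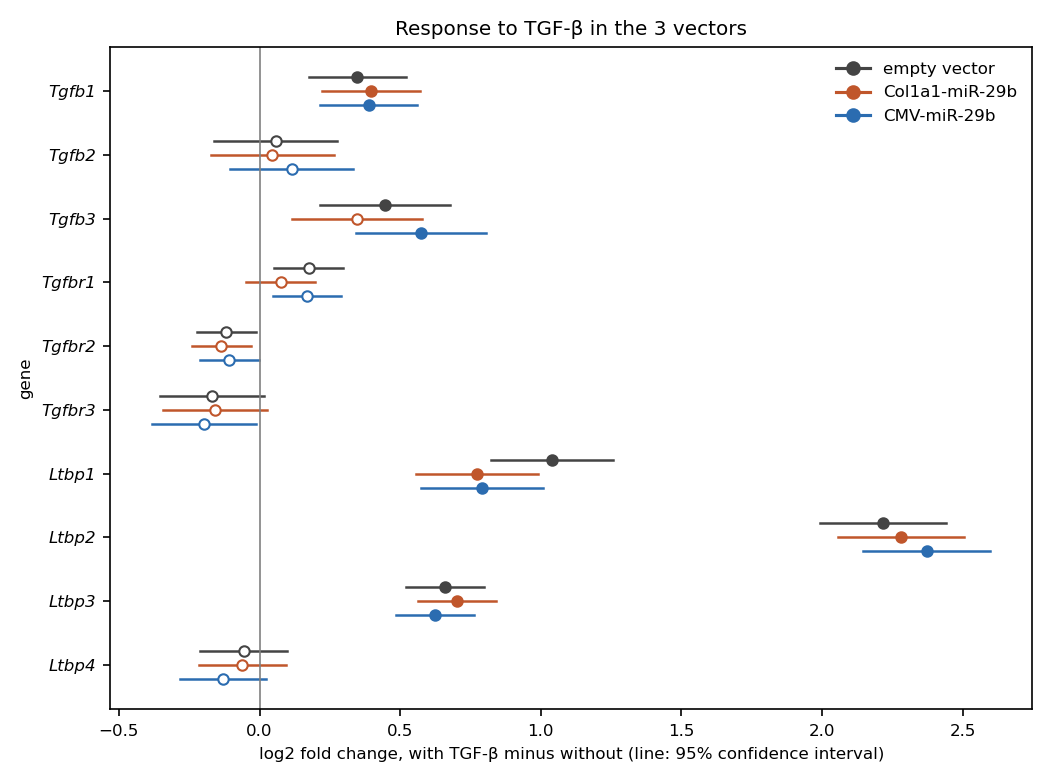
Points give the log2 fold change with TGF-β against without it for each gene in the 3 vectors, lines the 95% confidence interval of the edgeR fit, and filled points an adjusted p under 0.05. Ltbp2 lies at 2.22 to 2.37 in all 3 vectors, the Ltbp1 point is furthest right in empty vector cells (1.04 against 0.77 and 0.79), and the Tgfb3 point is open with Col1a1-miR-29b.

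With TGF-β present, Ltbp1 and Tgfbr3 were lower in Col1a1-miR-29b cells than in empty vector cells, and the other 8 genes did not pass. All genes tested were called at 12.9% in this comparison, 7.63% as lower, so 2 of 10 is near the background. In 4 of the 10 genes (Tgfbr2, Tgfbr3, Ltbp1 and Ltbp4) the groups did not overlap, against 30% of all tested genes. Ltbp1 had 78.7, 88.7 and 80.1 CPM against 112, 92.7 and 122 CPM. The groups did not overlap, with a gap between Col1a1-miR-29b library d and empty vector library d that was narrow. The log2 fold change was −0.40 (SE 0.10, adjusted p = 0.0174 from edgeR). Tgfbr3 had 35.3, 39.2 and 34.7 CPM against 46.0, 41.7 and 44.9 CPM, with a log2 fold change of −0.28 (SE 0.09, adjusted p = 0.0446). Its groups did not overlap either. Both calls were lost when the fit carried offsets for the length and GC content of transcripts, an alternative added after the data were seen, where the log2 fold changes were −0.31 and −0.19 (adjusted p = 0.0643 and 0.205). That of Ltbp1 was also lost without treated empty vector library c or e, or without treated Col1a1-miR-29b library c or the unlettered one, where its log2 fold change was −0.39, −0.31, −0.37 and −0.38 (adjusted p = 0.0552, 0.109, 0.074 and 0.0579). That of Tgfbr3 was lost on leaving out any of 12 of the 18 libraries, which are empty vector d and e, treated empty vector c and e, all 3 untreated and 2 treated Col1a1-miR-29b libraries (c and the unlettered one), untreated CMV-miR-29b e, and treated CMV-miR-29b c and d, with log2 fold changes of −0.29 to −0.26 and adjusted p of 0.0501 to 0.146. Fitted on the 2 groups alone, neither gene passed (adjusted p = 0.0682 and 0.0692). The summed fibroblast markers, which include Col1a1 and Col1a2, were also lower in treated Col1a1-miR-29b libraries, at 3513 to 3662 CPM against 4599 to 5562 CPM, and the smooth muscle sum was 147.7 to 152 against 157 to 158 CPM, and their part in these results was not tested.

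Without TGF-β none of the 10 genes passed for Col1a1-miR-29b against the empty vector with edgeR, while 6.27% of all tested genes did. By unadjusted p under 0.05 there were 2 (21.5% of all tested genes), and DESeq2 called 2, both times Tgfb3 and Tgfbr3. DESeq2 called 2346 of the 21161 tested genes in this comparison, more than the 1327 called by edgeR. In 4 genes (Tgfb2, Tgfb3, Tgfbr2 and Tgfbr3) the groups did not overlap, against 29% of all tested genes. Tgfb3 had 24.8, 25.0 and 23.8 CPM with Col1a1-miR-29b and 17.7, 18.05 and 21.7 CPM with the empty vector, with no overlap. Its log2 fold change was 0.36 (SE 0.11), with an adjusted p of 0.0636 from edgeR and 0.0248 from DESeq2. Tgfbr3 had 41.9, 39.6 and 40.3 CPM against 54.0, 46.9 and 48.1 CPM, with no overlap, and a log2 fold change of −0.29 (SE 0.09, adjusted p = 0.0596 from edgeR and 0.0153 from DESeq2). Leaving out single libraries brought each gene under the threshold with edgeR, Tgfb3 without empty vector library e (adjusted p = 0.0388) or treated empty vector library e (0.0392), and Tgfbr3 without treated empty vector library d (0.0461) or CMV-miR-29b library c or d (0.0196 and 0.048). With TGF-β, Tgfb3 had 30.2, 32.8 and 30.6 CPM against 22.6, 25.1 and 30.7 CPM. Here the groups overlapped through treated empty vector library e, and the log2 fold change was 0.26 (SE 0.11, adjusted p = 0.143), or 0.39 without that library (adjusted p = 0.0391). Ltbp1, which was lower with TGF-β, had 50.4, 47.5 and 47.0 CPM without it against 56.7, 49.9 and 52.0 CPM, groups that overlapped (log2 fold change −0.13, adjusted p = 0.521).

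For CMV-miR-29b against the same empty vector libraries no gene of the 10 passed with edgeR, and DESeq2 and limma called none, with TGF-β or without it. All tested genes were called at 0.00945% with TGF-β and at 0.00473% without it. By unadjusted p under 0.05 there was 1 gene with TGF-β, Ltbp1 (12% of all tested genes), and 0 without it (5.46%). Ltbp1 with TGF-β had 92.1, 100.2 and 88.0 CPM against 112, 92.7 and 122 CPM, overlapping groups, with a log2 fold change of −0.22 (95% confidence interval −0.43 to −0.004, adjusted p = 0.409). Tgfbr3 with TGF-β had a log2 fold change of −0.08 (−0.27 to 0.10, adjusted p = 0.784). In all 10 genes the CMV-miR-29b and empty vector libraries overlapped in both conditions, while 15.9% of all tested genes with TGF-β and 10.6% without it did not.

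Tgfb2, the gene with both seed matches, did not pass in any comparison of vectors. Against the empty vector its log2 fold change was −0.16 for the Col1a1 promoter vector and −0.10 for the CMV promoter vector in the presence of TGF-β. Without TGF-β it was −0.14 and −0.15. The 95% confidence intervals, −0.38 to 0.06, −0.32 to 0.12, −0.36 to 0.07 and −0.37 to 0.06, all included 0. In untreated Col1a1-miR-29b libraries Tgfb2 had 10.3, 10.3 and 10.4 CPM, and its groups did not overlap with the empty vector there (10.5 to 12.2 CPM), though the log2 fold change had an adjusted p of 0.471. Over the 322 tested genes with 2 or more seed matches, the median log2 fold change for Col1a1-miR-29b with TGF-β was −0.06 and 16.8% were called lower, and over the 12237 genes with none it was −0.005 and 9.95%. The same medians were −0.07 and −0.01 for CMV-miR-29b with TGF-β, where 0% were called lower in both sets. The sets were not matched for 3′ UTR length, and the part of that length in these values was not tested.

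**Figure D4:**
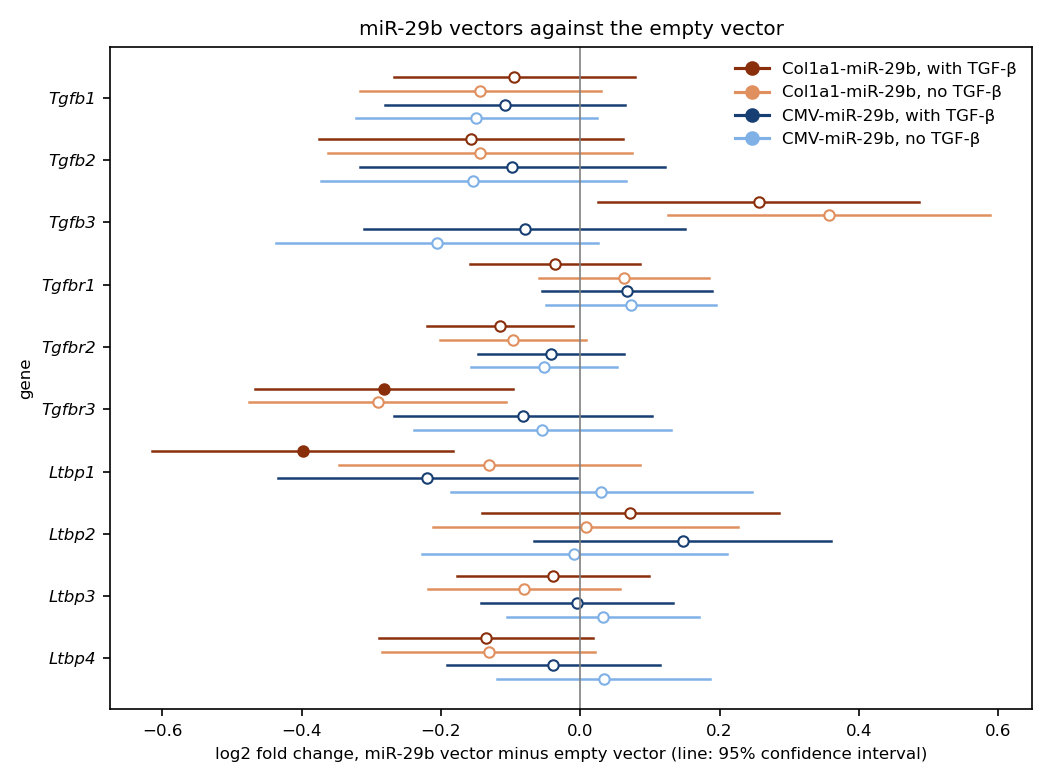
Points give the log2 fold change of each miR-29b vector against the empty vector with TGF-β (dark) and without it (light), lines the 95% confidence interval of the edgeR fit, and filled points an adjusted p under 0.05. The filled points are Tgfbr3 (−0.28) and Ltbp1 (−0.40) for Col1a1-miR-29b with TGF-β, and Tgfb3 lies right of 0 in both Col1a1-miR-29b comparisons (0.26 and 0.36) and left of it in both CMV-miR-29b comparisons.

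Between the miR-29b vectors, Tgfb3 was the gene that passed. Without TGF-β it had 15.98, 18.6 and 15.3 CPM with CMV-miR-29b and 24.8, 25.0 and 23.8 CPM with Col1a1-miR-29b, with no overlap. The log2 fold change of CMV-miR-29b against Col1a1-miR-29b was −0.56 (SE 0.11, adjusted p = 0.019 from edgeR), in a comparison where 1.81% of all tested genes were called, 0.803% as lower, and where 22% had groups that did not overlap, against 3 of the 10 (Tgfb3, Tgfbr3 and Ltbp4). The call was lost without any 1 of Col1a1-miR-29b library c, d or the unlettered one, or CMV-miR-29b library c or e, with log2 fold changes of −0.58 to −0.50 and adjusted p of 0.0529 to 0.105. Fitted on the 2 groups alone, the log2 fold change was −0.56 with an adjusted p of 0.104. With TGF-β it had 23.6, 24.3 and 26.2 CPM against 30.2, 32.8 and 30.6 CPM, a log2 fold change of −0.34 (SE 0.11, adjusted p = 0.126 from edgeR and 0.0492 from DESeq2). There edgeR called 0 of the 10 genes, against 1.93% of all tested genes, and 2 had an unadjusted p under 0.05 (15.6%). DESeq2 called 1 of the 10, and 1129 of the 21161 tested genes. In 3 (Tgfb3, Tgfbr2 and Tgfbr3) the groups did not overlap, against 23.3% of all tested genes. Tgfbr3 was at 0.20 with TGF-β (adjusted p = 0.279) and at 0.24 without it (adjusted p = 0.178), without overlap of the groups in either.

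The ratio of Tgfb3 to Tgfb1 counts within a library, which does not depend on scaling between libraries, separated the Col1a1-miR-29b libraries from all others. It is given as a description, since it was chosen after the values were seen. It was 0.541 ± 0.061 (SD, n = 3) in empty vector cells and 0.582 ± 0.1005 with TGF-β. The Col1a1-miR-29b ratios were 0.764 ± 0.038 and 0.738 ± 0.0075, and the CMV-miR-29b ratios 0.524 ± 0.096 and 0.590 ± 0.026. The lowest Col1a1-miR-29b library, at 0.720, lay above the highest of the other 12, at 0.655. The counts of Ltbp1 relative to Ltbp3 went from 0.623 ± 0.042 to 0.813 ± 0.121 with TGF-β in empty vector cells, from 0.602 ± 0.023 to 0.634 ± 0.071 in Col1a1-miR-29b cells and from 0.625 ± 0.102 to 0.704 ± 0.099 in CMV-miR-29b cells. The treated and untreated ranges of this ratio overlapped with both miR-29b vectors and did not with the empty vector, where the lowest treated library (0.675) was just above the highest untreated one (0.671).

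**Figure D5:**
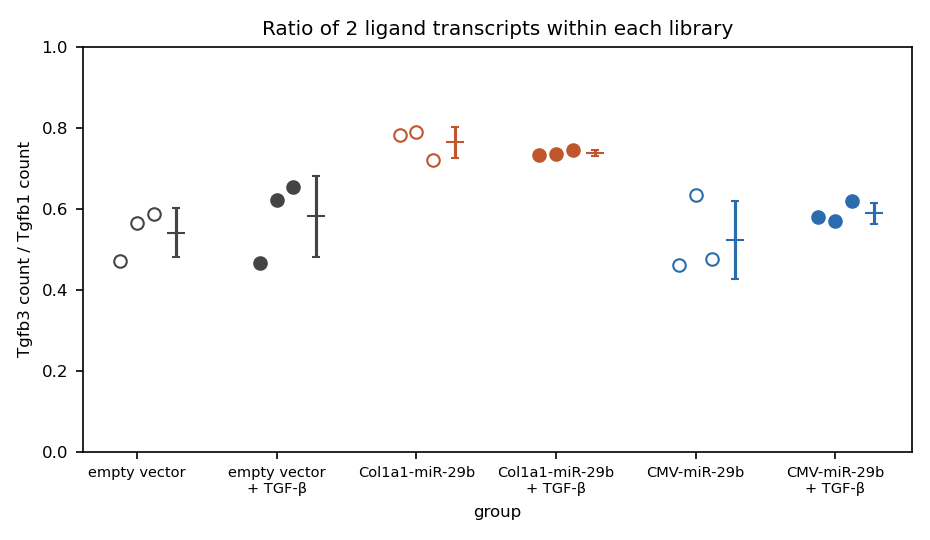
Points give, for each of the 18 libraries, the Tgfb3 count divided by the Tgfb1 count (no unit) by group, open without and filled with TGF-β, with the mean ± SD of each group (n = 3) beside them. The 6 Col1a1-miR-29b libraries lie between 0.720 and 0.789 and the other 12 between 0.461 and 0.655.

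Genes that store and release TGF-β were followed as a list. Of 23 such genes, 22 were tested in empty vector cells, and 10 rose and 2 fell on TGF-β treatment, where 3.88% of all tested genes were called higher and 2.01% lower. Their log2 fold changes had a median of 0.63 against 0.002 over all tested genes. The rises were led by Itgb3, an integrin subunit that binds latent TGF-β with αv (log2 fold change 1.81, SE 0.30, adjusted p = 0.0012 from edgeR), Thbs1, thrombospondin 1, an activator of the latent complex (1.32, SE 0.08, adjusted p = 2.98e-08), and Fbn1, the fibrillin that anchors binding proteins (0.96, SE 0.06, adjusted p = 9.36e-08). The falls were Dcn, decorin, a proteoglycan that can bind TGF-β (−1.11, SE 0.22, adjusted p = 0.00446), and Itgb8, another activating integrin subunit (−0.74, SE 0.14, adjusted p = 0.00345). Mean levels without and with TGF-β were 0.805 and 2.82 CPM for Itgb3, 5.70 and 2.64 for Dcn and 4.72 and 2.82 for Itgb8. For Thbs1 they were 110 and 274 CPM, and for Fbn1 161 and 314 CPM. Of the same 22 genes 10 rose and 2 fell with Col1a1-miR-29b (3% and 1.32% of all tested genes), while with CMV-miR-29b 10 rose and 1 fell (3.08% and 1.87%). Thbs1 rose by 1.02 and 1.25 there and Fbn1 by 0.70 and 0.76. Against the empty vector, Col1a1-miR-29b with TGF-β had 1 of the 22 higher and 3 lower, where 5.31% and 7.63% of all tested genes were, and without TGF-β 0 higher and 3 lower, where 2.57% and 3.7% were. In either direction 12.9% of all tested genes were called with TGF-β, so 4 of 22 is near the background, and 6.27% without it. Fbn1 was among the lower genes with TGF-β (log2 fold change −0.56, adjusted p = 0.000224) and without it (−0.30, adjusted p = 0.0151). The others, which are named after their values were seen, were Fn1, fibronectin (−0.41 with TGF-β and −0.33 without), Mmp14, a membrane-bound protease (−0.34 and −0.33), and, higher with TGF-β, the integrin subunit gene Itgb6, at a mean of 0.685 against 0.0795 CPM (log2 fold change 3.07, SE 0.66, adjusted p = 0.00689). Between the miR-29b vectors Fn1 was higher with CMV-miR-29b in the presence of TGF-β (0.35, adjusted p = 0.0248 from edgeR), where 1.93% of all tested genes were called. Without TGF-β 0 of the 22 passed by edgeR (1.81% of all tested genes), and 5 had an unadjusted p under 0.05 (16.4%). DESeq2 called 2 of the 22 there, and 1198 of the 21161 tested genes.

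Of 19 genes that carry or restrain the signal, 18 were tested. In empty vector cells 8 rose and 0 fell on TGF-β treatment, against 3.88% and 2.01% of all tested genes. The median of their log2 fold changes was 0.36, and 10 had an unadjusted p under 0.05, against 17% of all tested genes. Pmepa1, an inhibitor that sequesters receptor-regulated Smads, rose by 3.08 on the log2 scale (SE 0.08, adjusted p = 1.44e-12 from edgeR), Ldlrad4, a related inhibitor, by 2.15 (SE 0.13, adjusted p = 2.79e-08), and Smad7, the inhibitory Smad, by 1.05 (SE 0.30, adjusted p = 0.0495). With Col1a1-miR-29b 5 rose (3% of all tested genes) and with CMV-miR-29b 6 (3.08%), and Pmepa1 was at 2.47 and 2.72. Against treated empty vector cells, 7 of these 18 genes were lower in treated Col1a1-miR-29b cells and 0 higher, against 7.63% and 5.31% of all tested genes. Pmepa1 (log2 fold change −0.25, adjusted p = 0.0288) and Ldlrad4 (−0.62, adjusted p = 0.004) were among them, and the others, named after their values were seen, were the signal carriers Smad2, Smad3 and Smad4, the Smad anchor Zfyve9 and the ubiquitin ligase Smurf1. Over all genes, calls in this comparison went from 2738 to 1072 when the 2 groups were fitted alone. Results of the list genes are given for edgeR and DESeq2 alone, and DESeq2 called 7 of the 18 in either direction. Without TGF-β 1 was higher, Pmepa1 (0.37, adjusted p = 0.0087), and 2 were lower, Smad3 (−0.43, adjusted p = 0.00801) and Zfyve9 (−0.40, adjusted p = 0.00406), against 2.57% and 3.7% of all tested genes. Zfyve9 was also the gene of this list that passed between the miR-29b vectors without TGF-β, higher with CMV-miR-29b (0.34, adjusted p = 0.0183). In the presence of TGF-β edgeR called 0 of the 18 there (1.93% of all tested genes), and 3 had an unadjusted p under 0.05 (15.6%). DESeq2 called 1 of the 18, and 1129 of the 21161 tested genes. CMV-miR-29b against the empty vector had 0 of either list past the threshold with edgeR, with or without TGF-β. Of all 21161 tested genes edgeR called 2 with TGF-β and 1 without it, so 0 of a list is near the background. With TGF-β 4 genes of the first list and 6 of the second had an unadjusted p under 0.05 there, against 12% of all tested genes. DESeq2 called 1 and 0 of them, and 274 of all tested genes. Without TGF-β the numbers were 4 and 1, against 5.46%, and DESeq2 called 0 of both lists and 43 of all tested genes. For the difference in TGF-β response from empty vector cells, edgeR called 0 genes of either list in both miR-29b vectors, and 0% of all tested genes. By unadjusted p under 0.05 there were 3 genes of the first list in each vector, and 2 (Col1a1-miR-29b) and 4 (CMV-miR-29b) of the second, against 4.54% and 5.34% of all tested genes. DESeq2 called 1 gene of the second list for Col1a1-miR-29b and 0 otherwise. Of all tested genes it called 27 (Col1a1-miR-29b) and 19 (CMV-miR-29b). The Pmepa1 difference, chosen after its value was seen, was −0.61 for Col1a1-miR-29b (SE 0.10, adjusted p = 0.175) and −0.36 for CMV-miR-29b (SE 0.10, adjusted p = 0.922).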

How the data were processed

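The authors mapped poly(A) reads with HISAT2 and assembled them with StringTie, per the labels. They deposited whole-number counts per gene, not normalized, and FPKM values scaled for length and depth; the tool that counted reads is not given in the sources used here. Gene coordinates equal those of GENCODE release M21 (GRCm38) for 52506 of 55450 genes and for the 10 members, although the submitters' notes name mm9. The third library of each Col1a1-miR-29b group bears a letter found in no sample title and entered as an unlettered library of its group, and 2 columns, its FPKM values, were not used.

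The whole count table was fitted in R 4.3.3 by edgeR 4.0.16 (filterByExpr, TMM, 1 mean per group, quasi-likelihood F tests, Benjamini-Hochberg adjustment). SE and 95% confidence intervals came from the F statistic. The alternatives were DESeq2 1.42.0, its size factors, total counts, 2 filters, the compared groups alone, the replicate block, limma 3.58.1 on log2(FPKM + 1) and log2(FPKM + 0.1), leaving out each library, and, added after the data were seen, leaving out both unlettered libraries and offsets for the length and GC content of transcripts. Members and gene lists were chosen with earlier results of these data known. The text names all 10 members and, from each list, the 3 largest rises and falls past the threshold with TGF-β in empty vector cells, and other genes where marked as chosen later. Functions were tested on simulated data. The p-values measure the spread between these libraries, which may be partly technical. Whether libraries of 1 letter belong together is not stated: over 36 pairs of the same letter the mean correlation of deviations was 0.005.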

Additional observations from a re-analysis of the deposited data

How the results depend on the processing

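In the TGF-β responses, Ltbp1, Ltbp2 and Ltbp3 passed under each alternative run in all 3 vectors, with the same direction. The number of the 10 genes called in empty vector cells was 5, 4 with limma on log2(FPKM + 1), 3 when the 2 groups were fitted alone, and 3 to 5 without 1 library. Tgfb3 was the call lost with limma on log2(FPKM + 1), and it was also lost on log2(FPKM + 0.1). Over all alternatives the number called was 3 to 5 with Col1a1-miR-29b and 4 to 6 with CMV-miR-29b. For Col1a1-miR-29b against the empty vector with TGF-β it was 2, 1 with total counts or with the filter of at least 1 count in any library, 0 with the compared groups alone, limma on either FPKM scale, the length and GC offsets or without both unlettered libraries, and 0 to 2 without 1 library. Without TGF-β it was 0, 2 with DESeq2, 1 with the filter of at least 10 counts in every library, and 0 to 1 without 1 library. Between the miR-29b vectors it was 0 with TGF-β (1 with DESeq2) and 1 without TGF-β, where it was 0 with the compared groups alone, limma on either scale or without both unlettered libraries, and 0 to 1 without 1 library. For the other 4 comparisons it stayed at 0 in each alternative.

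The replicate block, with the letter c, d or e in the model and the unlettered libraries left out, called 0 of the 10 for Col1a1-miR-29b against the empty vector with TGF-β (Ltbp1 at −0.37, adjusted p = 0.109) and 0 for CMV-miR-29b against Col1a1-miR-29b without it (Tgfb3 at −0.63, adjusted p = 0.0686). Tgfb1 in Col1a1-miR-29b cells was lost as well (0.43, adjusted p = 0.0576). This fit changes 2 things at once: without both unlettered libraries and with no block, the same 3 calls were lost (adjusted p = 0.0715, 0.0753 and 0.0536), and over all genes 453 were called in Col1a1-miR-29b cells, against 394 with the block and 914 in the fit reported. The letters were not shown to pair libraries: 3 of 36 same-letter pairs correlated above 0.1, and 8 of 16 lettered libraries correlated best with their own letter.

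Log2 fold changes that changed sign were near 0. Tgfb2 with TGF-β ranged from −0.026 to 0.10 in empty vector cells and from −0.036 to 0.098 in Col1a1-miR-29b cells without 1 library, and in the latter was −0.036 with the replicate block, −0.036 and −0.056 with limma (pseudocounts 1 and 0.1), and −0.035 without both unlettered libraries. Tgfb3 for CMV-miR-29b against the empty vector with TGF-β ranged from −0.18 to 0.054 without 1 library. Of the response differences without 1 library, Tgfb1 ranged from −0.017 to 0.13 (Col1a1-miR-29b) and from −0.031 to 0.13 (CMV-miR-29b), Tgfb3 from −0.19 to 0.045 and Ltbp2 from −0.025 to 0.21 (Col1a1-miR-29b), and Ltbp3 from −0.11 to 0.024 (CMV-miR-29b). The Ltbp2 difference was −0.0059 with the replicate block and −0.015 without both unlettered libraries, and the Ltbp3 difference 0.014 with the offsets. The causes were not tested.

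Counts over all genes, the background of the 10, moved more. Over the alternatives other than single libraries they were 618 to 1759 (1245 in the fit reported) for TGF-β in empty vector cells, 394 to 1313 (914) with Col1a1-miR-29b and 527 to 1496 (1047) with CMV-miR-29b. For Col1a1-miR-29b against the empty vector they were 1072 to 3519 (2738) with TGF-β and 161 to 2346 (1327) without it. For CMV-miR-29b against the empty vector they were 1 to 274 (2) and 0 to 43 (1), against Col1a1-miR-29b 13 to 1129 (408) and 18 to 1198 (382), and for the response differences 0 to 27 (0) and 0 to 19 (0). Levels as CPM per kilobase of exon kept the order of the 10 genes in untreated empty vector cells, and 9 of the 10 lay more than 1 SD from the FPKM value.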

Other observations

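For each of the 10 genes, the tested gene with the most similar pattern was found by Pearson's correlation of log2 CPM over the 18 libraries, among 13911 other genes with a mean of at least 1 CPM. These are descriptions without a p, and the libraries fall into treated and untreated sets that such correlations share. Ltbp2 was nearest to Ccn4, a matricellular protein (r = 0.993), whose log2 fold change on TGF-β treatment of empty vector cells was 2.20. Ltbp1 was nearest to Ano1, a chloride channel (r = 0.993), with 1.25 on the same scale, and Ltbp3 to B4galt1, a galactosyltransferase (r = 0.976), with 0.54. Tgfb1 was nearest to Tgif1, a repressor of Smad transcription (r = 0.968), and Tgfb3 to Cdkn1a, a cell-cycle inhibitor (r = 0.899). Among the receptors, Tgfbr3 was nearest to Magi3 (r = 0.966), Tgfbr2 to Filip1l (r = 0.938) and Tgfbr1 to Osbpl8 (r = 0.879). Ltbp4 and Tgfb2, the genes with the smallest response to TGF-β in empty vector cells, had the weakest matches, Gm8341 (r = 0.865) and Spast (r = 0.815).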
